A study of Xenopus tropicalis with 12 samples.

Results

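Thyroid hormone (T3) acts through thyroid hormone receptors (TRs), nuclear receptors that sit on T3 response elements in chromatin as heterodimers with the retinoid X receptor. In the frog, TR without hormone recruits corepressors and holds T3-inducible genes down, and TR with hormone recruits coactivators at the same elements. This is why most TR targets are thought of as bound whether or not T3 is present. The regions described here depart from that picture in the peak lists, because a TR peak was called in most libraries without T3 in each genotype and in at most 1 of the 3 libraries with T3. They numbered 390 of the 189159 regions found in the whole series.

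The regions come from TR ChIP-seq on hind limb of *Xenopus tropicalis* tadpoles at stage 54, when natural metamorphosis begins. Wild-type (WT) tadpoles were compared with TRα (-/-) tadpoles, which lack TRα and keep the other receptor gene, TRβ. Each genotype was either left untreated or given 10 nM T3 for 18 h, and chromatin of whole hind limbs, a mixture of cell types, was pooled from at least 5 tadpoles per sample. Each of the 4 conditions was sequenced as 3 technical replicate libraries, so the spread between libraries is technical. The lists give no value by which the tissue or the knockout itself could be checked. Regions were not assigned to genes and their sequences were not analysed here, because no genome or annotation of the v9.1 build was used.

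A peak is a stretch where the sequenced fragments pile up above the local background. Overlapping peaks of the 12 lists (1 bp or more in common) were joined to regions. A condition counted as bound if a peak was present in 2 or 3 of its libraries. The lost regions are those bound in WT without T3 and in TRα (-/-) without T3, and bound in neither genotype with T3. The regions were thus selected on the presence of called peaks in the same 12 libraries. Their numbers and strengths are given as descriptions and were not tested. Tests were made only in libraries whose peak calls were not used in the choice, although their peaks had taken part in the merging. The mirror class, gained with T3 in both genotypes, held 447 regions, and 5098 regions were bound in all 4 conditions. Libraries ranged from 834029 to 6119057 fragments and from 4645 to 42421 peaks. The library with the fewest of both was replicate 2 of TRα (-/-) without T3.

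Without T3, 6509 regions were bound in both genotypes. With T3, 390 of them were bound in neither genotype (5.99%, 95% Wilson interval 5.44 to 6.59%, counting error only). A further 511 (7.85%) were lost in WT only and 510 (7.84%) in TRα (-/-) only, whereas 5098 (78.3%) stayed bound in both. In all, 901 of the 6509 regions (13.8%) were not bound in WT with T3 and 900 (13.8%) were not bound in TRα (-/-) with T3. Over all regions bound without T3 in one genotype, 36.4% of 15853 were lost in WT and 21.5% of 7485 in TRα (-/-). The gained class made up 5.32% of the 8396 regions bound with T3 in both genotypes, a share close to that of the lost class. The 390 lost regions are thus a small class, and a class of about the same size runs in the opposite direction.

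Loss in WT and loss in TRα (-/-) often fell on the same region. Among the 901 regions lost in WT, 43.3% were also lost in TRα (-/-), and among the 5608 that stayed bound in WT, 9.09% were lost in TRα (-/-). Weak regions, by the score defined below, were lost more often in either genotype. Within the weakest quintile of the 6509 regions, 53.4% of the regions lost in WT and 31.5% of the regions kept in WT were lost in TRα (-/-), so these shares stood nearer to each other there. In the second quintile they were 33.2 and 14.0%.

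Few of the lost regions switched from present to absent across all libraries. No region had a peak in all 6 untreated libraries and in none of the 6 T3 libraries. The reverse pattern, a peak in all 6 T3 libraries and in no untreated library, was found in 2 regions. The untreated side includes the shortest list, replicate 2 of TRα (-/-) with 4645 peaks, and its part in the difference between the 2 counts was not tested. A peak in all 5 other untreated libraries and in no T3 library was found in 5 regions. Of the 390 lost regions, 207 (53.1%) had a peak in 2 T3 libraries, 1 of each genotype, which is the most the rule admits. Another 143 (36.7%) had a peak in 1 T3 library, and 40 (10.3%) had none. On the untreated side, 225 regions had a peak in 4 libraries, 150 in 5 and 15 in all 6. Most of the class therefore sat at the edge of the rule on the T3 side.

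**Figure D1:**
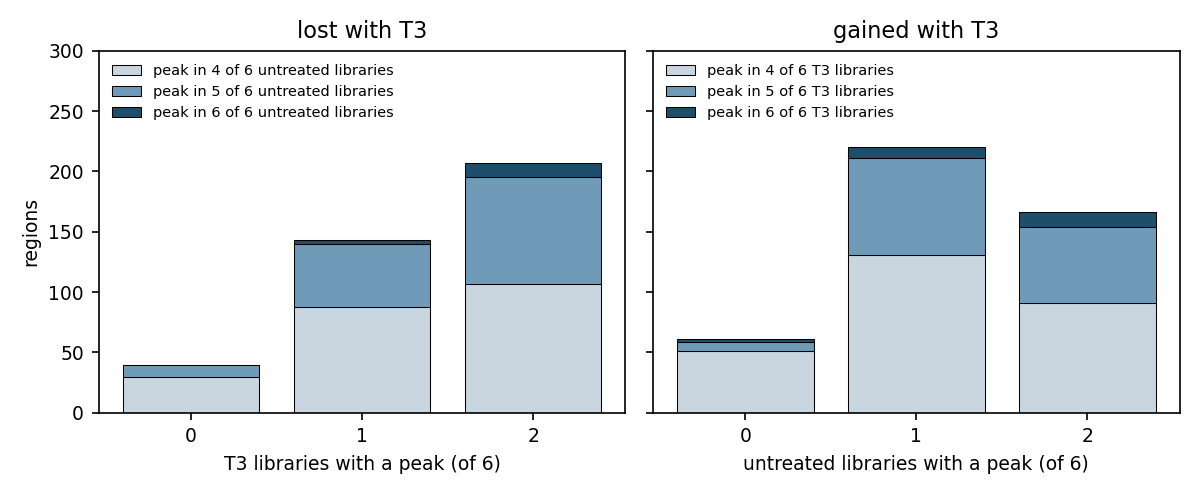
Number of regions (y axis) by how many of the 6 libraries of the treatment where the region was not bound still had a peak (x axis), with shading for the number of libraries with a peak where it was bound. The left panel holds the 390 lost regions, of which 207 had a peak in 2 T3 libraries and 40 in none, and the right panel the 447 gained regions, of which 61 had no peak in any untreated library.

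The regions just outside the rule looked much like those just inside it. The 207 lost regions with a peak in 1 library of each T3 condition had a median score of 40.1. The score is the percentile of the region's q value in each list (100 is the strongest peak of a list), averaged over the 6 untreated libraries with a missing peak counted as 0. The 313 regions kept only by 2 WT libraries with T3 scored 42.4, and the 340 kept only by 2 TRα (-/-) libraries with T3 scored 44.2. The 40 lost regions with no T3 peak at all had the lowest median score, 29.9, and a median pileup of 6 fragments. The regions with a peak in all 6 T3 libraries scored 77.5, with 17 fragments. Of the 40 regions, 30 had a peak in only 4 untreated libraries, and their missing peaks counted as 0 in the score.

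Each library carried a different part of the class. Without T3, the WT libraries had a peak in 274, 308 and 346 of the 390 lost regions (replicates 1, 2 and 3). The TRα (-/-) libraries without T3 had a peak in 346, 94 and 372 of them. Replicate 2 was low here, and 358 of the 390 regions (91.8%) were bound in TRα (-/-) through 2 libraries, in most cases replicates 1 and 3. With T3, the WT libraries still had a peak in 59, 88 and 129 lost regions and the TRα (-/-) libraries in 64, 68 and 149. The deepest library of each condition had the most peaks in the class, with and without T3. The 5098 regions bound in all 4 conditions showed a narrower spread, from 82.7 to 97.9% with a peak in the T3 libraries and from 94.0 to 99.1% in the untreated libraries, replicate 2 of TRα (-/-) excepted with 49.4%.

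**Figure D2:**
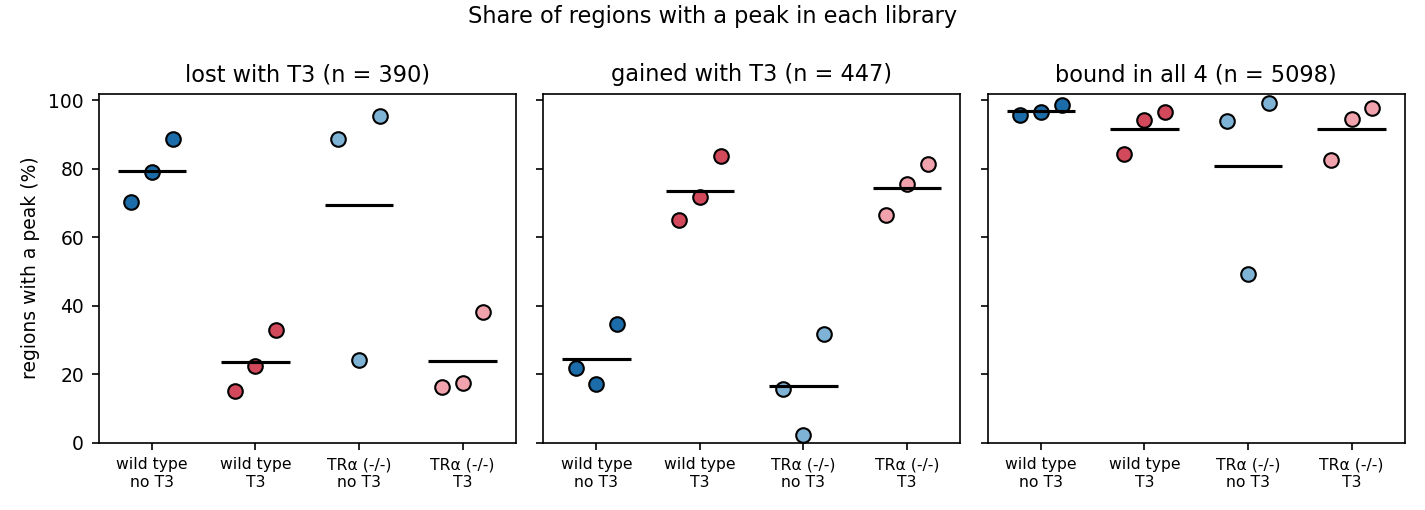
Percentage of regions with a peak in each of the 12 libraries (points, replicates 1, 2 and 3 from left to right in each condition; line, mean of the 3 libraries) for the lost, gained and constantly bound regions. The rule fixes that lost regions lie high without T3 and low with T3, and the low point among the untreated TRα (-/-) libraries is replicate 2, with a peak in 94 of the 390 lost regions.

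The lost regions were weak beside the constantly bound ones. The median summit pileup of their peaks was 6, 7 and 10 fragments in the WT libraries without T3, against 13, 17 and 23 fragments for the regions bound in all 4 conditions. In TRα (-/-) without T3 it was 5, 4 and 7 fragments, against 8, 6 and 14. Over all peaks of these lists the median pileup was 5, 7 and 10 fragments in WT and 4, 4 and 7 in TRα (-/-). The peaks of lost regions were thus not below the median peak of their lists in pileup. Median fold enrichment over the local background lay between 4.30 and 5.09 in the 6 untreated libraries for the lost regions and between 5.21 and 9.19 for the constantly bound ones. In every untreated library the lost regions were thus below the constantly bound regions. The gained regions were about as weak, with a median pileup of 3 to 7 fragments and a median fold enrichment of 3.60 to 4.92 in the 6 T3 libraries, and their median score over these libraries was 42.6, against 38.8 for the lost regions over the untreated ones. The median q value percentile of the peaks in lost regions was 55.1 ± 5.09 (SD over the 6 untreated libraries), near the middle of the lists. That of the constantly bound regions was 83.3 ± 7.35. Where a T3 library did have a peak in a lost region, the median fold enrichment of that peak was 3.77 to 5.19, about that without T3. Over all peaks of a list the median was 2.70 to 4.72 with T3 and 4.06 to 4.98 without T3, so fold enrichment did not compare evenly between lists. The median q value percentile of the T3 peaks in lost regions was 65.9 ± 5.16 (SD over the 6 T3 libraries), above that without T3. The T3 lists were longer on the whole, and the part of list length in the higher percentile was not tested. In 74 of the 350 lost regions with a T3 peak (21.1%), the highest fold enrichment of all 12 libraries was in a T3 library, although at most 2 T3 libraries could contribute. By q value percentile this held for 140 of the 350 (40%). Of the 386 gained regions with an untreated peak, 106 (27.5%) had their highest fold enrichment in an untreated library. By q value percentile 34 of the 386 (8.81%) did, so the 2 measures ordered the classes oppositely.

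The share of regions lost fell steeply with the score. When the 6509 regions bound without T3 in both genotypes were ranked by score and divided into quintiles, 283 of 1302 (21.7%) were lost in both genotypes in the weakest quintile and 2 of 1302 (0.154%) in the strongest. The quintiles between them lost 5.68, 1.69 and 0.691%. The weakest quintile therefore contributed 283 of the 390 lost regions. Loss in WT fell from 40.7 to 0.307% over the same quintiles and loss in TRα (-/-) from 40.4 to 0.538%, so the genotypes followed the same course. Strength here was measured in the libraries that also chose the regions. A missing untreated peak counted as 0, so the score also rose with the number of untreated libraries with a peak. Of the 390 lost regions, 225 had a peak in only 4 of these libraries, which kept them from the highest scores. The fall over the quintiles thus holds strength and number of peaks together.

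**Figure D3:**
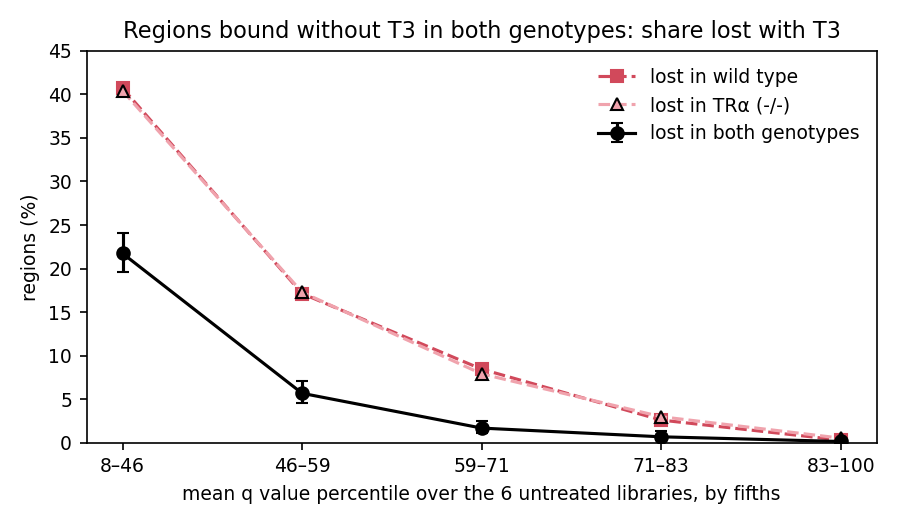
Percentage of the 6509 regions bound without T3 in both genotypes that were lost with T3 (y axis), by quintiles of the mean q value percentile in the untreated libraries (x axis, weakest on the left). Black points are regions lost in both genotypes with 95% Wilson intervals, from 21.7% in the weakest to 0.154% in the strongest quintile, and the dashed lines give loss in each genotype.

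Depth differed between the conditions in WT. WT libraries with T3 held 1055706 to 2307377 fragments, and those without T3 at least 3080104. Scaled from the deepest untreated WT library with a peak to the depth of WT with T3 replicate 1, the median lost region would have 1.73 fragments, and 238 of the 390 (61.0%) would lie below the 2 fragments that were the lowest pileup called in that library. For replicate 2 the numbers were 2.98 fragments and 211 regions below 3 fragments, and for replicate 3 they were 3.77 fragments and 85 regions below 3. In TRα (-/-), where depth was similar with and without T3, 125 lost regions would lie below the lowest pileup called in T3 replicate 1 and 23 in each of replicates 2 and 3. The median lost region would there have 2.35, 4.59 and 7.14 fragments. Among the regions bound in all 4 conditions, 1.22 to 13.2% would lie below the lowest pileup in a T3 library. Their scaled medians were 3.97, 6.86 and 8.67 fragments in WT with T3, but their called peaks there had medians of 7, 11 and 13. The scaling thus gave lower pileups than were found for these regions. Whether it also put the lost regions too low, and too many of them below the lowest pileup, was not tested. At scaled depth more lost regions thus fell below the lowest pileup in WT than in TRα (-/-), and the part of depth in the losses was not tested.

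To look at libraries that had not chosen the regions, lost-type regions were chosen with 2 replicate numbers (a peak in all 4 untreated libraries and in none of the 4 T3 libraries) and then read in the replicate number left out. The peaks of the replicate number left out had still taken part in the merging that set the regions. This choice found 11 regions without replicate 1, 35 without replicate 2 and 7 without replicate 3. In the WT libraries left out, 3 of 11, 20 of 35 and 6 of 7 regions had a peak without T3, and 1 of 11, 20 of 35 and 5 of 7 had one with T3. The mean share was 56.7% ± 29.2 (SD, n = 3 libraries) without T3 and 45.9% ± 32.7 with T3, a difference of 10.8 percentage points (exact two-sided permutation test, p = 0.7). In the TRα (-/-) libraries left out, 5 of 11, 3 of 35 and 5 of 7 regions had a peak without T3, and 3 of 11, 11 of 35 and 4 of 7 had one with T3. The means were 41.8% ± 31.6 and 38.6% ± 16.2, a difference of 3.20 points (exact permutation test, p = 1, n = 3 libraries each). The T3 libraries left out thus had a peak in 9.09 to 71.4% of the regions chosen for having none. The shares were lowest in replicate 1, with 9.09% in WT and 27.3% in TRα (-/-). The permutation test did not separate the treatments in either genotype, and 3 libraries against 3 allow no p below 0.1, so it could not decide on a loss. Each replicate number was read on its own set of 11, 35 or 7 regions. The spread therefore also holds differences between the sets, and the test cannot separate these from differences between libraries. Without replicate 1 or replicate 3 the TRα (-/-) difference changed sign, to -4.29 or -2.34 points.

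Gained and constantly bound regions were chosen in the same way. For gained-type regions (34, 13 and 31 regions), the libraries left out had a peak in 42.4% ± 11.6 of them in WT with T3 and in 44.3% ± 13.6 in WT without T3. In TRα (-/-) the shares were 51.3% ± 9.0 with T3 and 25.7% ± 22.5 without T3 (SD, n = 3 libraries each, not tested). For the 2210, 3200 and 1712 regions with a peak in all 8 libraries used, the shares in the libraries left out were 98.8% ± 0.90 and 94.9% ± 4.48 in WT without and with T3, and 81.1% ± 23.7 and 94.6% ± 5.39 in TRα (-/-).

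The other genotype gave a second reading outside the choice. The 1613 regions lost in TRα (-/-) were chosen without the WT peak calls, although WT peaks had taken part in the merging. They had a peak in 49.8, 52.8 and 61.4% of cases in the WT libraries without T3 and in 33.5, 42.2 and 49.9% in those with T3. The WT libraries without T3 were higher in each same-numbered pair, but this also held for the 6481 regions gained with T3 in TRα (-/-), with means of 59.7% ± 4.39 without T3 and 48.5% ± 8.39 with T3. A lower share in WT with T3 was therefore found for regions lost and for regions gained in TRα (-/-). Conversely, the 5768 regions lost in WT had a peak in 23.2, 5.27 and 37.3% of cases in the TRα (-/-) libraries without T3 and in more cases with T3, 25.3, 34.9 and 42.3%. This also held for the 3436 regions gained in WT, with means of 12.3% ± 9.23 without T3 and 22.5% ± 5.24 with T3. The 10085 regions kept in WT had means of 53.6% ± 24.2 and 73.7% ± 10.1. A higher share in TRα (-/-) with T3 was therefore not particular to the regions lost in WT. The shares in the other genotype were not tested, and they compare libraries of different depth.

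The best-ranked lost regions were named by their score, which also favours regions with peaks in more untreated libraries. The first 10 scored from 71.3 to 96.2. All 10 had a peak in each of the 3 WT libraries without T3. None was free of T3 peaks, since 8 had a peak in 1 library of each genotype with T3 and the other 2 in 1 WT library. In 6 of the 10, a T3 library reached at least 20 fragments, so these regions were lost in most T3 libraries and strong in another library of the same chromatin. Such T3 peaks were rare in the class, where 10 of all 390 lost regions had one.

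The first lay on chromosome 2 from 144971497 to 144971832 (v9.1 coordinates, 336 bp). Its summit pileup was 20, 47 and 49 fragments in WT without T3 and 16, 15 and 27 in TRα (-/-) without T3. With T3 it had 10 fragments in WT replicate 3 and 25 in TRα (-/-) replicate 3, and no peak in the other 4 libraries. It was the strongest lost region with a peak in all 6 untreated libraries, and its T3 peaks came from the deepest T3 library of each genotype. The second lay on chromosome 7 from 1406420 to 1406898 (479 bp), with 19, 19 and 37 fragments in WT without T3 and 9, 9 and 19 in TRα (-/-) without T3. With T3 only the replicate 2 libraries had a peak, with 17 fragments in WT and 6 in TRα (-/-).

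The third, on chromosome 1 from 71652848 to 71653056, was 209 bp long and had the highest pileups of the class. WT without T3 had 219, 328 and 256 fragments, and TRα (-/-) without T3 had no peak in replicate 1 and 24 and 53 fragments in replicates 2 and 3. With T3, WT replicate 2 had 43 fragments and TRα (-/-) replicate 1 had 49, and no other T3 library had a peak. Per 1000000 fragments of depth, TRα (-/-) replicate 1 with T3 stood at 52.1, above the 28.8 and 17.7 of the 2 untreated TRα (-/-) libraries with a peak and within the 41.8 to 78.3 of WT without T3. The libraries of a single chromatin sample thus ranged from no peak to one of the strongest of the list, whose q value percentile was 99.9 in TRα (-/-) replicate 1 with T3.

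The same pattern was found in further short regions. The fourth, on chromosome 4 from 114925050 to 114925303 (254 bp), had 133, 185 and 181 fragments in WT without T3, 13 and 29 in replicates 1 and 3 of TRα (-/-) without T3, and 27 in WT with T3 replicate 3. The fifth, on chromosome 10 from 5098610 to 5098800 (191 bp, the shortest of the class), had 58, 86 and 45 fragments in WT without T3, 15 and 13 in replicates 1 and 2 of TRα (-/-) without T3, and 14 in WT replicate 2 and in TRα (-/-) replicate 1 with T3. In fragments, WT without T3 was above every other library in both regions. Per 1000000 fragments of depth the fourth kept this order, with 29.6 to 44.2 in WT without T3 and 8.14 to 11.7 elsewhere. The fifth did not, with 7.35 to 20.5 in WT without T3 and 9.39 and 15.6 in TRα (-/-) replicates 1 and 2 without T3. With T3 it had 7.67 in WT replicate 2 and 14.9 in TRα (-/-) replicate 1, both within the untreated range of their genotype. The eighth, on chromosome 4 from 126418028 to 126418373 (346 bp), had 48, 51 and 61 fragments in WT without T3 and 14 and 5 in replicates 1 and 2 of TRα (-/-), and with T3 24 in WT replicate 1 and 49 in TRα (-/-) replicate 3. In TRα (-/-) the T3 peak of this region was above both untreated ones. The sixth, on chromosome 9 from 77019569 to 77019832 (264 bp), ranged from 5 to 25 fragments without T3 and still had 20 in TRα (-/-) replicate 2 with T3.

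The other 3 were the longest of the 10. The seventh, on chromosome 7 from 116905561 to 116906170, had 4 to 19 fragments in the 6 untreated libraries and 6 and 2 in its T3 peaks (WT replicate 3 and TRα (-/-) replicate 1), so its T3 peaks lay at the low end of the untreated range or below it. The ninth, on chromosome 5 from 22562459 to 22563405, had 4 to 16 fragments without T3 and 9 and 8 with T3, within the untreated range. The tenth, on chromosome 10 from 38347690 to 38348634, had 18, 41 and 36 fragments in WT without T3, 7 and 9 in TRα (-/-) replicates 1 and 3 without T3, and 28 in WT replicate 2 with T3.

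Per 1000000 fragments of depth, several of these T3 peaks stood above the untreated ones of their genotype. In WT this was so in 5 of the 10 regions. The WT peak with T3 had 9.31 against 4.54 to 6.17 without T3 in the second region, 22.7 against 9.97 to 15.6 in the eighth and 15.3 against 5.84 to 9.79 in the tenth, and the sixth and ninth showed the same order. In TRα (-/-) it was so in 3 regions, the third, sixth and eighth. In fragments the WT peaks with T3 of all 5 regions were below the highest WT peak without T3, so their order turned with depth. The constantly bound regions showed the same order in WT. Their median pileup per 1000000 fragments was 5.63 to 6.63 in the WT libraries with T3 and 3.76 to 4.22 in those without. In TRα (-/-) it was 5.96 to 7.44 with T3 and 4.67 to 7.19 without T3. The order in WT was thus not particular to the lost regions.

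**Figure D4:**
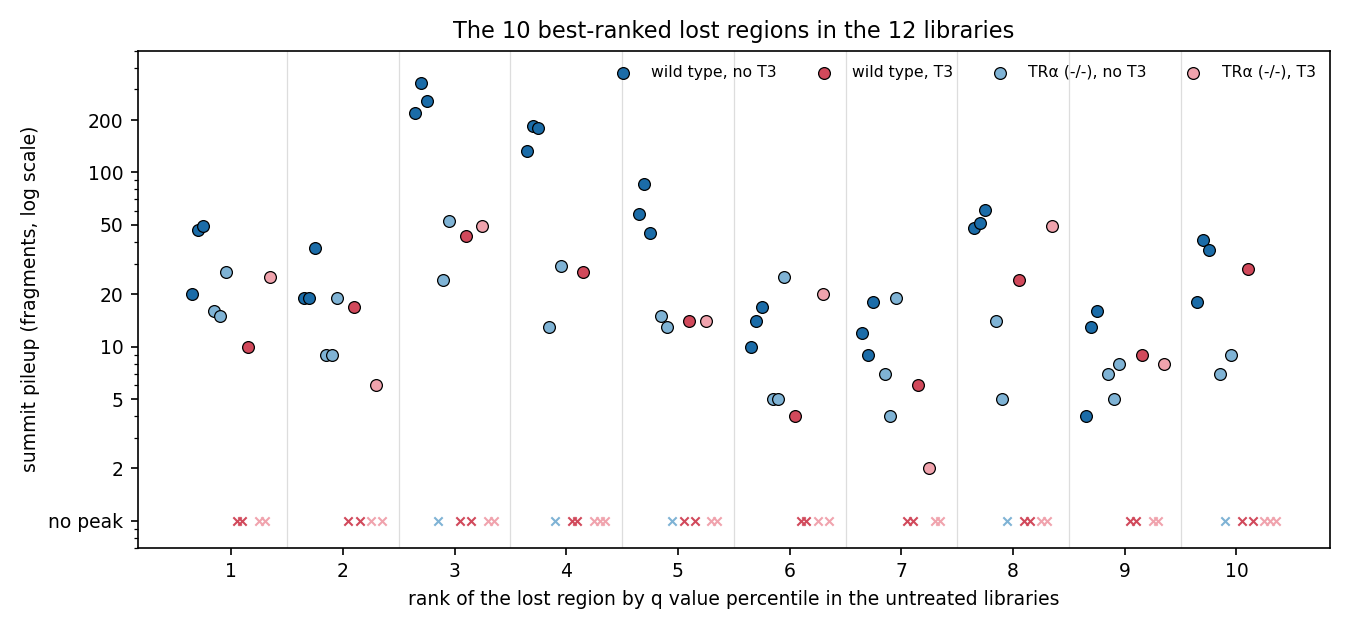
Summit pileup in fragments (y axis, log scale) of the 10 best-ranked lost regions (x axis) in the 12 libraries, with crosses for libraries without a peak. Dark blue and light blue are WT and TRα (-/-) without T3, and dark red and light red the same with T3. Every region has at least 1 T3 peak, and in 6 regions a T3 peak reaches 20 fragments or more.

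No region met the strictest form of loss, so the regions nearest to it were chosen with their values known. They are the 10 with a peak in 5 untreated libraries and in no T3 library. The 2 highest in score lay on chromosome 4 from 37631118 to 37632034, with 7, 12 and 11 fragments in WT and 4 and 11 in TRα (-/-) replicates 1 and 3, and on chromosome 8 from 1906598 to 1907444, with 15, 26 and 24 in WT and 7 and 17 in TRα (-/-) replicates 2 and 3. The second of them had the highest pileups of the 10. The third, on chromosome 9 from 77982643 to 77983144, had 11 and 15 fragments in WT replicates 2 and 3 and 8, 4 and 17 in the 3 TRα (-/-) libraries. The other 7 had pileups between 3 and 14 fragments. Scores of the 10 lay between 26.4 and 55.3.

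For contrast, the best-ranked gained region lay on chromosome 8 from 1119320 to 1119911. It was 1 of the 2 regions with a peak in all 6 T3 libraries and in none without T3, with 5, 21 and 13 fragments in WT and 7, 8 and 13 in TRα (-/-). The next 4 by score, on chromosomes 6 (504593 to 505377 and 9106023 to 9106957), 2 (167049751 to 167050620) and 3 (128497918 to 128499429), each had 1 or 2 untreated peaks, of 5 to 29 fragments. High pileups were a feature of a few lost regions rather than of gained ones. An untreated peak of at least 40 fragments occurred in 7 lost regions, and no gained region reached 40 fragments in any library. WT libraries without T3, where most of these peaks were, were also the deepest.

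In length the lost regions resembled the gained ones. Their median was 780.5 bp (quartiles 543.5 and 1005 bp, range 191 to 2529), that of the gained regions 808 bp, and that of the constantly bound regions 1032.5 bp. Single peaks of lost regions had median lengths of 326 to 436 bp in the untreated libraries, against 446 to 804 bp for constantly bound regions. Regions shorter than 400 bp were 10.3% of the lost, 4.25% of the gained and 2.86% of the constantly bound class, and 6 of the 10 named lost regions were among them. A base shared by the peaks of at least 4 untreated libraries existed in 333 of the 390 lost regions (85.4%), so in the other 57 the region rested on peaks that overlapped only in part. The corresponding share was 80.3% for gained regions over the T3 libraries and 97.7% for constantly bound regions. In the 225 lost regions with a peak in 4 untreated libraries, the peaks of all these libraries had to share a base. The part of the number of peaks and of region length in these shares was not tested.

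The lost regions were scattered over the 10 chromosomes. The median distance to the nearest other lost region was 525851 bp, against 520031 bp among the gained regions. In all, 64 lost regions (16.4%) had another within 100 kb and 16 within 10 kb. The window of 2 Mb with the most lost regions was the first on chromosome 8, with 9 of its 110 regions bound without T3 in both genotypes, and no other such window held more than 5. The lost regions were therefore not concentrated at a few loci. They lay among other TR-bound regions, with a median distance of 7098.5 bp to the nearest region bound in any condition, against 9081 bp for gained and 6997 bp for constantly bound regions. Within 5 Mb of the first or last base reached on a chromosome lay 31.0% of the lost, 29.3% of the gained and 39.7% of the constantly bound regions.

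Chromosome 4 stood above the others in the share lost. It held 58 of the 390 lost regions, 10.6% of its 548 regions bound without T3 in both genotypes (95% Wilson interval 8.28 to 13.4%), whereas the other 9 chromosomes lost 4.57 to 6.65%. The loss was spread along it, with 28 of 303 regions (9.24%) in its first, 5 of 50 in its middle and 25 of 195 (12.8%) in its last stretch of equal length. Its regions were not weaker, with a median score of 65.9 against 62.8 to 70.1 on the other chromosomes, and in the weakest quintile it also lost a larger share than the other 9 (15.9 to 26.8%). In the genotypes taken singly, chromosome 4 lost 38.4% of all its WT regions (33.8 to 38.4% on the others) and 25.3% of all its TRα (-/-) regions (19.3 to 22.9%). It did not stand out among the gained regions, with 5.17% against 4.73 to 6.31%. The difference was noticed in these data and not tested, and it was not found under every setting. With equal list lengths, chromosome 4 ranked 3 of 10 (8.41%), with 1 library sufficient 7 (7.13%) and with all 3 libraries required 5 (7.37%). With replicate 1, 2 or 3 left out of all conditions it ranked 3, 6 and 4 (4.89, 13.6 and 7.65%). Without replicate 3 of TRα (-/-) without T3 it ranked 2, at 3.85%.

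**Figure D5:**
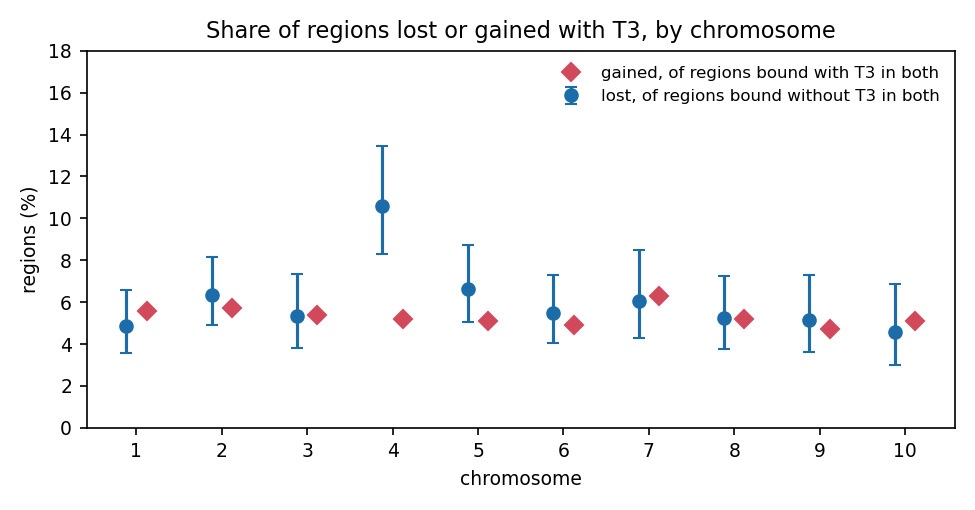
Percentage of regions lost with T3 in both genotypes, of those bound without T3 in both (blue, with 95% Wilson intervals), and percentage gained, of those bound with T3 in both (red), on each of the 10 chromosomes. Chromosome 4 lost 10.6% and the others between 4.57 and 6.65%.

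The size of the class depended on single libraries. Leaving out an untreated library, with both remaining ones required, can only shrink it, and leaving out a T3 library can only enlarge it. Without TRα (-/-) replicate 3 or replicate 1, both without T3, it held 50 or 76 regions, and without WT replicate 3 or 2 without T3 192 or 230. Without T3-treated replicate 2 or 3 of WT it held 610 or 651 regions, and without those of TRα (-/-) 655 or 674. With replicate 1, 2 or 3 left out of all conditions it held 116, 727 or 164 regions. The number of lost regions thus depended on which libraries were used. These numbers also rest on a changed rule, with both remaining libraries required instead of 2 of 3. The range they span is therefore not an error margin of the 390. The gained class moved as widely, from 165 without WT replicate 3 with T3 to 1104 without WT replicate 3 without T3. The near-equal size of the classes was not stable either. With a pileup of at least 4 fragments required of every peak, 465 regions were lost and 226 gained, and with all 3 libraries required, 156 were lost and 202 gained.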

How the data were processed

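TR ChIP-seq peak lists of 12 libraries (4 conditions with 3 technical replicates each, groups and replicate numbers from the sample labels) were analyzed. The authors used Bowtie2 (2.3.4.1) for alignment of paired-end reads to Xenbase v9.1, Samtools for the removal of redundant reads and MACS2 (2.1.1.20160309) for peaks, library by library, with no control and a q value cutoff of 0.05. The deposited summit pileup is a signal counted in fragments, with no scaling to library depth. The deposited p-value and q-value are given as −log10, and the deposited fold enrichment is a ratio over the local background. Depth is the number of fragments after filtering in the authors' file headers.

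Peaks sharing at least 1 bp were merged in Python 3.11.15 with pandas 2.3.3, numpy 2.4.6 and scipy 1.17.1. A region's value in a library is that of its peak with the best q value. Shares in libraries left out of the choice were tested with an exact permutation test, two-sided, on the mean difference. Merging and classification were tested on simulated lists. Wilson intervals cover counting error only. The p-values cover the spread between technical libraries and between the region sets they were read on, and no biological spread. Regions named are the 10 lost and 5 gained regions with the highest score. The third planned set, lost regions with peaks in all 6 untreated and no T3 library, was empty. The alternatives were q values below 0.01 or 0.001, a merging gap of 500 bp, equal list lengths, a pileup or fold enrichment of at least 4, other numbers of libraries, left-out libraries and a replicate block. Percentiles always refer to the full lists. The class, its rule and the comparisons were chosen with earlier results of these data known, and the readings in the other genotype, at scaled depth and by chromosome were added after seeing the data. Sequences, genes and the TRE motif were not analysed here, since the gene table at hand is of another assembly.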

Additional observations from a re-analysis of the deposited data

How the results depend on the processing

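The number of lost regions (390) stayed within 1.5 times under both stricter q values (401 and 324), a 500 bp merging gap (383), a pileup of at least 4 (465) and a fold enrichment of at least 4 (389). It was 181 with equal list lengths, 1083 with 1 library sufficient, 156 with all 3 required and 40 with no T3 peak allowed, and 50 to 727 with libraries left out. The gained number (447) was less stable, at 166 with q below 0.001, 226 with a pileup and 213 with a fold enrichment of at least 4, 98 with equal lists, 3458 with 1 library, 202 with all 3, 61 with no untreated peak allowed, and 165 to 1104 with libraries left out. With the stricter q values, the pileup and fold filters and equal lists, the lost class was the larger one. The percentage lost (5.99%) was 6.98 and 7.42% with q below 0.01 and 0.001, 7.37% with equal lists, 7.80 and 7.92% with the pileup and fold filters, 7.53 and 7.08% with 1 and all 3 libraries, 0.615% with no T3 peak allowed, and 2.05 to 13.6% with libraries left out. The median percentile of lost regions (55.1) was 61.1 and 71.2 with the stricter q values, 82.7 with equal lists, 60.2 and 66.5 with the pileup and fold filters, which all remove weak peaks by construction, 40.5 and 71.2 with 1 and all 3 libraries, 44.9 with no T3 peak allowed, and 54.5 to 67.5 with libraries left out.

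No setting brought the reading in left-out replicates past the threshold, which this design cannot reach. The WT difference was -1.48 points with q below 0.01 and the TRα (-/-) difference -5.71 points with a pileup of at least 4, both reversed. Other settings moved them upward, the WT difference to 26.1 points with q below 0.001 and 28.6 with a fold enrichment of at least 4 (exact permutation p = 0.5 and 0.4), and the TRα (-/-) difference to 18.2 with equal lists (exact p = 0.4) and 11.2 with the fold filter (exact p = 0.7). With a replicate number left out they ranged from 7.14 to 16.2 and from -4.29 to 16.2 points. In the fit with a replicate block, the WT difference of 10.8 points had p = 0.5 and the TRα (-/-) difference of 3.20 points p = 1 (exact sign-flip test, n = 3 pairs). Same-numbered libraries with and without T3 had correlations from -0.01 to 0.05 over regions. Those of different number had correlations from -0.07 to 0.07, so the same-numbered ones did not stand out. Whether the number pairs the libraries was not tested. The shares of same-numbered libraries in the left-out reading were paired all the same, since both were read on the same chosen regions. The sign-flip test takes this into account, but with 3 pairs it allows no p below 0.25.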
